A study of Caenorhabditis elegans with 2 samples.

Results

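The genes described here are 10 genes of Caenorhabditis elegans that act in, or in the making of, the amphid sheath glia: ver-1, ttx-1, lin-26, mls-2, vab-3, pros-1, fig-1, vap-1, kcc-3 and daf-6. They were listed by name among the 19973 protein-coding genes that Ensembl release 115 places on the 6 nuclear chromosomes of assembly WBcel235. The listing rule uses no value of these data, but the genes were proposed with earlier results of these data known. The region of each gene was its body plus the intergenic sequence upstream of its 5′ end, as far as the next protein-coding gene and at most 10 kb. The data are ChIP-seq peak lists for ZTF-16, a zinc-finger transcription factor of the Hunchback and Ikaros type. The 2 biological replicates belong to a single group, so no conditions could be compared, and the question is where near these genes the tagged protein was recovered.

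Both replicates were whole late embryos of both sexes of strain OP558, genotype unc-119(tm4063) III; wgIs558, collected 5 hours after egg bleaching. The wgIs558 insertion supplies ZTF-16 joined at its C-terminus to GFP and FLAG, and the unc-119 mutation is carried by all the animals. Chromatin was sonicated and precipitated with an anti-GFP antibody. No animals without the tagged protein were analysed here. The embryo has a single pair of amphid sheath cells, so a site bound in few cells and a site bound weakly in many cannot be told apart in these whole-embryo lists, and no expression was measured that could show whether the sheath cells carried the protein.

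The amphid is the main sense organ of the worm's head. Its sheath glia wrap the endings of the sensory neurons, line the channel through which some of them reach the outside, and secrete a matrix around them. Genetic work has placed ztf-16, together with the Otx-type homeobox gene ttx-1, upstream of ver-1, which encodes a receptor tyrosine kinase related to vertebrate VEGF receptors and is expressed in the sheath glia. In that work ver-1 expression rises in dauer larvae and in animals grown at high temperature, when the sheath glia change shape. Of the other genes, lin-26, mls-2, vab-3 and pros-1 encode transcription factors, and fig-1, vap-1, kcc-3 and daf-6 encode secreted or membrane proteins of the mature glia.

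On ce11, the same assembly as WBcel235, the relaxed list of replicate 1 held 21235 peaks, that of replicate 2 held 18242 and that of the pool held 14968. The authors' stricter list, thresholded by the irreproducible discovery rate (IDR), held 822. A peak is placed here by its summit. The signal value of each peak is the authors' and ranks peaks only within its own list, where rank 1 is the strongest. In the pooled list it ran from 28.4 to 835 with a median of 35.9, and the weakest IDR-thresholded peak had 77.4. The relaxed lists were made as input to IDR and may hold background. The lists carry no read numbers, so depth is unknown.

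None of the 10 genes had an IDR-thresholded summit in its region, where 5.04% of all protein-coding genes had one. A count of 0 of 10 allows a share of up to 27.8% (upper end of the Wilson 95% interval). A share like that of all genes was thus within what 10 genes can show. In the relaxed pooled list 6 of the 10 had a summit (60%, Wilson 95% interval 31.3 to 83.2), against 43.0% of all genes. A pooled summit was called matched where each replicate's own list had a summit within 200 bp of it, and 3 of the 10 genes had a matched one (30%, interval 10.8 to 60.3), against 25.4% of all genes. These 3 were ver-1, mls-2 and daf-6. The counts of genes with a pooled and with a matched summit were close to the background, and nothing particular to the group is read from them. The intervals cover counting error over genes only.

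The regions of the 10 genes were longer than most, with a median of 10.7 kb against 3.54 kb for all genes. Among genes with a region over 12 kb, 86.4% had a pooled summit and 61.2% a matched one. Of the 5 sheath glia genes in that class 4 had a pooled summit and 1, daf-6, had a matched one. In the class from 6 to 12 kb, 2 of 3 genes had both kinds, against 63% of all such genes with a pooled and 38.2% with a matched summit. An IDR-thresholded summit was present at 10.7% of all genes over 12 kb and at 7.17% of those from 6 to 12 kb. It was present at 3.17% of those up to 3 kb, the class of lin-26 and vap-1. Per 100 kb of region there were 11.7 pooled summits at the 10 genes and 15.8 over all gene regions. Matched summits numbered 3.34 per 100 kb at the 10 genes and 7.05 per 100 kb over all gene regions, in which a summit between divergent genes counts for each. No test was made of these differences.

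**Figure D1:**
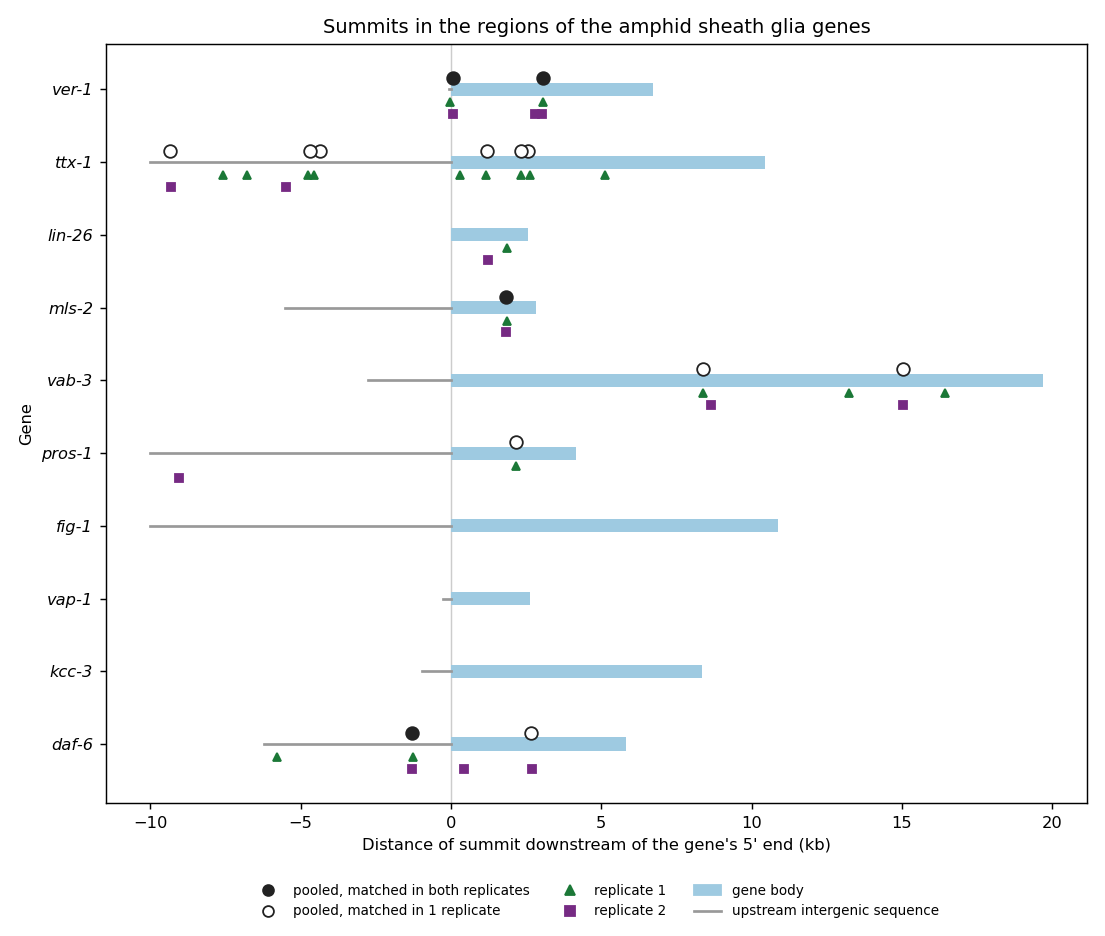
Summits of the pooled list (circles), replicate 1 (triangles) and replicate 2 (squares) in the region of each gene, by distance in kb downstream of the gene's 5′ end, with the gene body as a bar and the upstream intergenic sequence as a line. The filled circles mark the 4 pooled summits matched in both replicates, at ver-1, mls-2 and daf-6, and fig-1, vap-1 and kcc-3 have no symbol.

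The pooled summits at these genes were 14 in number and weak. Their signal ran from 29.4 to 44.84 with a median of 31.9, and the median over the pooled peaks outside the IDR-thresholded list was 35.3. The best placed of them, in ver-1, had rank 3612 and the last, upstream of ttx-1, rank 13681. The deposited −log10 q-value, the authors' caller's own measure, ran from 0.0294 to 0.44 over the 14 with a median of 0.0608. It was 3.23 for every pooled peak of the IDR-thresholded list and had a median of 0.131 over the rest. Of the 14 summits, 10 lay downstream of the 5′ end, within a gene body, and 4 upstream. Introns held 8, coding exons 2 and intergenic sequence 4, and over all pooled peaks the shares were 35.5% in introns, 16.9% in coding exons and 42% in intergenic sequence. Of the 14, 1, at ver-1, lay within 1000 bp of its gene's 5′ end. No share over all pooled peaks stands beside this count or the split by side of the 5′ end. Neither is therefore read as a trait of these genes.

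Of the 14, 4 were matched in both replicates (28.6%), against 40.0% of the pooled peaks outside the IDR-thresholded list and 99.5% of those in it. Of the others 7 were matched in replicate 1 alone (50%) and 3 in replicate 2 alone (21.4%). Among the pooled peaks outside the IDR-thresholded list these shares were 30.8% and 25%. Replicate 1's own list had 19 summits in these regions and replicate 2's had 13, and 4 of each lay within 200 bp of one in the other list. Over the whole lists, 31.1% of replicate 1's summits and 35.8% of replicate 2's lay that close to one in the other. Without replicate 1, the 14968 strongest peaks of replicate 2 put 8 summits in these regions, with none at ttx-1 or pros-1. Without replicate 2, as many of replicate 1's peaks put 12 there.

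**Figure D2:**
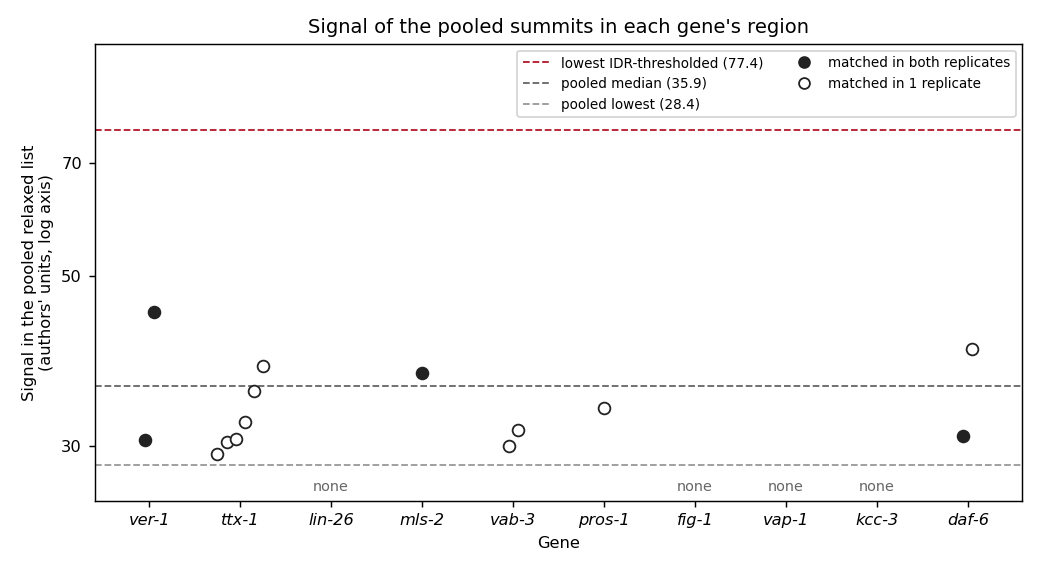
Signal (authors' units, log axis) of each pooled summit in the region of each gene, filled where matched in both replicates, with dashed lines at the weakest IDR-thresholded peak and at the median and lowest of the pooled list. All 14 points lie below the line at 77.4, and 10 lie below the median of 35.9.

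The sequences at the 4 matched summits are shown because they are the sites found in both replicates, and those of the ver-1 pair bear on the gene that genetic work connects with ztf-16. Each is 300 bases of the WBcel235 genome (RefSeq) on the strand of its gene, from 150 bases before the summit to 149 after it. Capitals mark TAATCC, the core bound by Otx-type homeodomain proteins such as TTX-1, and GGGAA, a core of Ikaros-type sites, on either strand (GGATTA and TTCCC are their reverse complements). The windows are III:156746-157045 and III:159728-160027 on the plus strand for ver-1, X:4759663-4759962 on the minus strand for mls-2 and X:14887049-14887348 on the plus strand for daf-6.
ver-1 start: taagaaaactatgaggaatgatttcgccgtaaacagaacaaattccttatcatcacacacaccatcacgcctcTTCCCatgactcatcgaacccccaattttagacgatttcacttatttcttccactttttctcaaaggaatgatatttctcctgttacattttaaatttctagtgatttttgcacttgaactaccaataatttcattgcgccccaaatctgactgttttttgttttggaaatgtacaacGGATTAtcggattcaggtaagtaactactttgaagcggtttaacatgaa
ver-1 intron: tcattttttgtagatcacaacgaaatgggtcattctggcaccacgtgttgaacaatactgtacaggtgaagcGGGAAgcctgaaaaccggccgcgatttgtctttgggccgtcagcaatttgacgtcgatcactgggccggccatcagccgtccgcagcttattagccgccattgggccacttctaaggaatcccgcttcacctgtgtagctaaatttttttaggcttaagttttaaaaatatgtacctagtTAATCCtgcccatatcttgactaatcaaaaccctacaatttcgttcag
mls-2 exon: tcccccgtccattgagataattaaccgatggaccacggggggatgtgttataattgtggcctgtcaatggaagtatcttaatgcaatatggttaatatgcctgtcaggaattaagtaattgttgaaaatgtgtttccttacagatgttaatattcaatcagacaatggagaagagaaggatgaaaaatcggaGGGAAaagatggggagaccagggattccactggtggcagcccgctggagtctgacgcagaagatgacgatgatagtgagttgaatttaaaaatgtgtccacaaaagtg
daf-6 upstream: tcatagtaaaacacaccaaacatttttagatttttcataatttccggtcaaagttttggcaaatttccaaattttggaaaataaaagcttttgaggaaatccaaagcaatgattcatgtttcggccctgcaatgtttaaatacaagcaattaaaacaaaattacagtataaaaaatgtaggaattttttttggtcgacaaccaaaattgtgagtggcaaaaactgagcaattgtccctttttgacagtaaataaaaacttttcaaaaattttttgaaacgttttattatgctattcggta
Both ver-1 windows held 1 TAATCC and 1 GGGAA, the mls-2 window held 1 GGGAA, and the daf-6 window held neither.

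The ver-1 gene (WBGene00006894, III:156824-163542, plus strand) lies 0.16 Mb from the end of its chromosome. Its upstream intergenic sequence is only 78 bp long, and the immunoglobulin-domain gene zig-13 starts at the far side of it, on the minus strand. The pooled summit near the 5′ end was at III:156896, 72 bp inside the gene and in a coding exon, with signal 30.57 and rank 12215. Its nearest summit ranked 10534 in replicate 1, where it lay 24 bp upstream of the 5′ end, and 13420 in replicate 2, where it lay 71 bp inside. Both replicates thus had a weak peak at the start of ver-1, 49.61% of the way down the list of replicate 1 and 73.57% down that of replicate 2. The pooled peak spans III:156676-157115 and so covers the start of zig-13 as well. Whether it concerns ver-1, zig-13 or neither was not tested.

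A second pooled summit lay in an intron of ver-1 at III:159878, 3054 bp downstream of the 5′ end. With signal 44.84 and rank 3612 it was the highest of the 14. It ranked 2856 in replicate 1 (13.45% of the way down the list) and 12637 in replicate 2 (69.27%), so the replicates placed it far apart. Replicate 2 had another summit 2811 bp inside the gene with rank 8664, which had no match in replicate 1. The GC content of the 101 bp around the summit was 57.4% in the intron and 28.7% at the start of the gene, where the 822 IDR-thresholded summits averaged 48.8% ± 8.07 (SD over peaks) and the other pooled peaks 40.1% ± 9.31. The nearest IDR-thresholded summit was 190970 bp beyond the 3′ end of ver-1, next to gei-4.

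For ttx-1 (WBGene00006652, V:20053719-20064176, minus strand), the Otx-type gene also known for the fate of the AFD thermosensory neurons, the summits within the region came almost wholly from replicate 1. That replicate's list had 9 summits in the 20.46 kb region and replicate 2's had 2, and no summit of one list lay within 200 bp of one in the other. The pooled list had 6, the most of any of the 10 genes, of which 5 were matched in replicate 1 alone and 1 in replicate 2 alone. The 6 had signals from 29.36 to 38.2. Of these, 3 were in introns, at 1189, 2335 and 2557 bp inside the gene, and 3 were intergenic, 4369, 4698 and 9354 bp upstream.

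In replicate 1 some of the ttx-1 sites ranked well. The summit matched to the pooled one 4369 bp upstream, 182 bp from it, had signal 35.49 and rank 1307 of 21235, and the intronic ones at 2557 and 1189 bp had ranks 2215 and 2414. The only pooled summit of the region matched in replicate 2, 9354 bp upstream, ranked 15878 of 18242 there. Past the 10 kb limit but still in the intergenic sequence upstream of ttx-1, a pooled summit at V:20075186, 11010 bp upstream, had signal 40.13, above all 6 in the region. It was matched in both replicates, at ranks 11819 and 5898 in replicates 1 and 2. Among the 10 regions that of ttx-1 had the widest gap between the replicates in number of summits, and its cause was not tested. Pairs of summits lay 222 bp apart in the introns and 329 bp apart upstream, closer than the 440 bp width of the pooled peaks, so the 6 summits stand for 4 separate stretches.

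**Figure D3:**
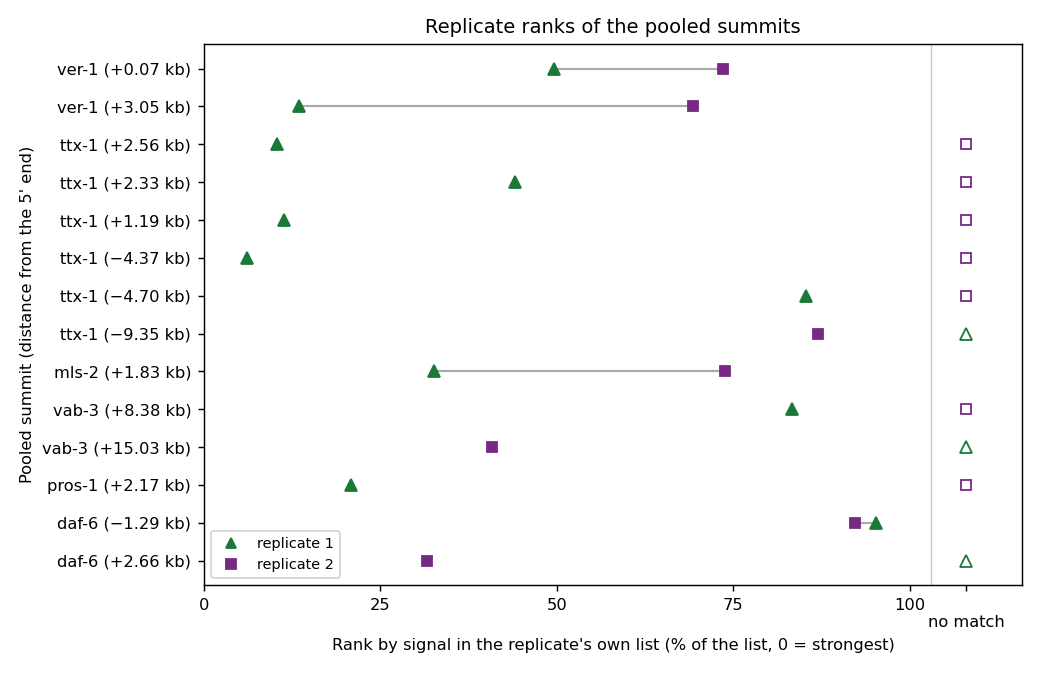
Rank of each pooled summit's match in replicate 1 (triangles) and replicate 2 (squares), as a percent of the replicate's list with 0 the strongest, and open symbols at the right where a replicate has no summit within 200 bp. Of the 4 sites with both symbols, 3 rank better in replicate 1, and the daf-6 site upstream of the gene lies past 90% in both.

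Among the transcription factor genes, mls-2 (WBGene00003377, X:4758804-4761640, minus strand), an HMX-type homeobox gene needed for glial development, had 1 pooled summit. It lay at X:4759813 in a coding exon, 1827 bp downstream of the 5′ end, with signal 37.39 and rank 6547. It ranked 6920 in replicate 1 and 13481 in replicate 2, whose summits were 45 and 0 bp from the pooled one. No list had a summit in the 5511 bp between mls-2 and the neuropeptide receptor gene npr-1 upstream of it.

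The Pax6 gene vab-3 (WBGene00006870, X:10499890-10519580, plus strand), which acts in head patterning and in sheath glia, had 2 pooled summits, both in introns. One was 8377 bp downstream of the 5′ end, with signal 31.51, and ranked 17697 in replicate 1 alone. The other was 15031 bp downstream, with signal 30.02, and ranked 7458 in replicate 2 alone. Replicate 2 also had a summit at 8663 bp, which is more than 200 bp from the first. None lay in the 2750 bp upstream of the gene.

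At pros-1 (WBGene00000448, III:8067289-8071463, plus strand), the Prospero-type homeobox gene that controls genes of the sheath glia, the single pooled summit lay in an intron at III:8069464, inside a tRNA gene (III:8069405-8069476). It also lay within K12H4.10 (III:8069340-8069485), an annotated non-coding RNA gene on the opposite strand to pros-1. The summit had signal 33.63 and rank 9185, with rank 4430 in replicate 1 and no match in replicate 2. It was the only one of the 14 within 200 bp of a tRNA, snoRNA, snRNA, rRNA or miRNA gene. Leaving out all pooled peaks so placed took the genes with a pooled summit from 6 to 5 of the 10. Over all genes it took the share from 43% to 42%. The closest IDR-thresholded summit was 23328 bp upstream of pros-1, beyond the 10 kb searched, with K12H4.7 in between. That summit, of signal 835, is the strongest in the whole list and lies 526 bp from the 5′ end of K12H4.5.

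The lin-26 gene (WBGene00003012, II:7682198-7684764, plus strand) encodes a zinc-finger factor needed for epithelial and glial fates. It is known to be transcribed in an operon with lir-1, a related zinc-finger gene directly upstream. In the annotation lir-1 (II:7672005-7682363) overlaps its first 166 bp, so lin-26 had no upstream intergenic sequence of its own and its region was its 2.57 kb body. No pooled summit lay there. Replicate 1 had 1 summit there with rank 19617 and replicate 2 had 1 with rank 14968, both in coding exons, 1864 bp (replicate 1) and 1244 bp (replicate 2) inside the gene, so they were not matched. Just outside, 266 bp past the 3′ end of lin-26, a pooled summit at II:7685030 had signal 53.98 and rank 1997, above any of the 14. It was matched at ranks 3132 and 3127 in replicates 1 and 2 and lay in an intron of F18A1.1, 141 bp from the 5′ end of that gene.

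The picture upstream, inside lir-1, was different. The body of lir-1 held 6 pooled summits, all intronic, and 3 of them were matched in both replicates. The strongest was at II:7678854, 3344 bp upstream of lin-26, with signal 75.6 and rank 867, just under the weakest IDR-thresholded peak (77.44). It ranked 766 of 21235 in replicate 1 and 1139 of 18242 in replicate 2, and its deposited −log10 q-value was 2.54. The best ranks of any summit in the regions of the 10 genes were 1307 in replicate 1, at ttx-1, and 5781 in replicate 2, at daf-6. The next, 4287 bp upstream of lin-26, had signal 48.88 and rank 2676, with ranks 2229 and 9513 in replicates 1 and 2.

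The third matched summit was 2385 bp upstream of lin-26, with signal 32.24. The summit at II:7678854 also lay within F18A1.10 (II:7678635-7679048), an annotated non-coding RNA gene on the opposite strand to lir-1. Whether these sites act on lin-26, on lir-1 or on neither was not tested. The sequence at the strongest, II:7678704-7679003 on the plus strand, is shown because it was the strongest summit in or within 10 kb upstream of any of the 10 genes, and it held neither of the capitalised cores.
lir-1 intron: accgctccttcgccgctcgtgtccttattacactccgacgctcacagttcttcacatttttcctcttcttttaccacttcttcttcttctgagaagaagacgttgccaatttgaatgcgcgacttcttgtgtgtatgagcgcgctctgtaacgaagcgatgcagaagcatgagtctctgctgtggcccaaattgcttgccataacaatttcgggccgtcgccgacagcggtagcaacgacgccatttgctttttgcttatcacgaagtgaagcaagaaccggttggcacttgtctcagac

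**Figure D4:**
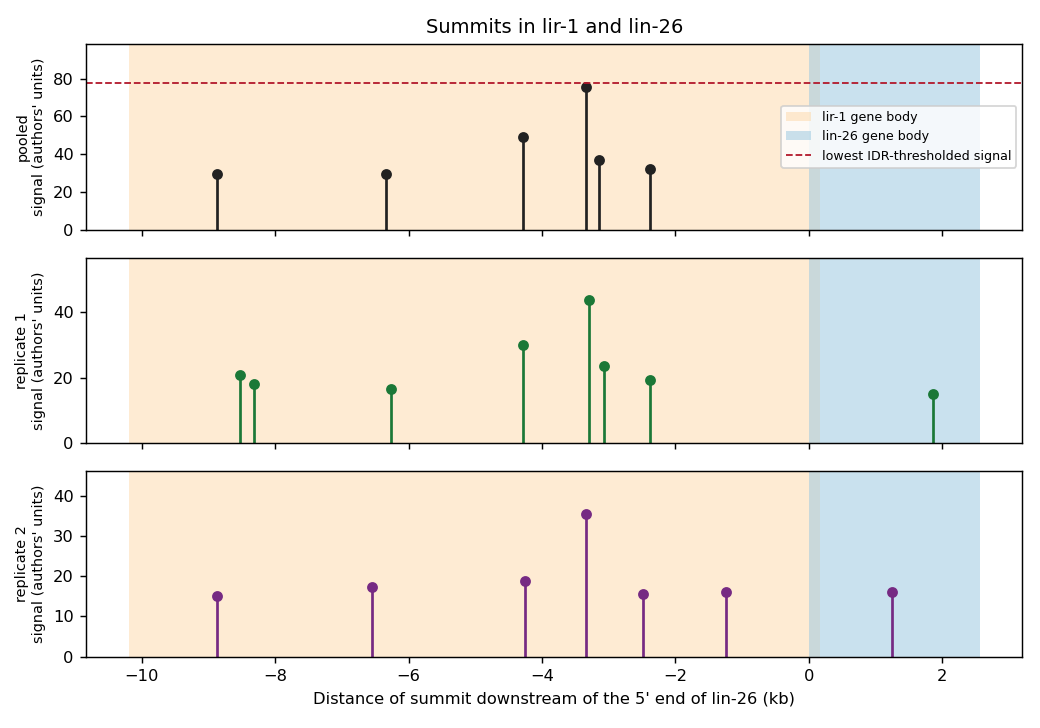
Signal (authors' units) of each summit in lir-1 and lin-26 in the pooled list, replicate 1 and replicate 2, by distance in kb from the 5′ end of lin-26. The highest summit of each list lies about 3.3 kb upstream of lin-26 within lir-1, and in the pooled list it reaches 75.6, below the dashed line at 77.4.

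Among the genes of the mature glia, daf-6 (WBGene00000902, X:14888488-14894326, plus strand), which encodes a Patched-related membrane protein that limits the width of the amphid channel, had 2 pooled summits. The upstream one was at X:14887199, 1289 bp before the 5′ end and in intergenic sequence, with signal 30.93 and rank 11789. It was matched in both replicates, at ranks 20230 and 16822, near the bottom of each list. Of the bases under this peak 89.8% were in lower case in the RefSeq genome, which marks repeats and low-complexity sequence, against a median of 30% over all pooled peaks. The other, in an intron 2663 bp downstream, had signal 40.19 and rank 5139, with rank 5781 in replicate 2 and no match in replicate 1.

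No list had any summit in the regions of fig-1, vap-1 or kcc-3. The fig-1 gene (WBGene00009968, V:10970345-10981213, minus strand) encodes a protein of the sheath glia with thrombospondin repeats and had one of the longest regions, 20.87 kb. The closest pooled summit, at V:10965655 and 4690 bp past its 3′ end, had signal 74.74 and rank 895 and was matched in both replicates, but lay 64 bp from the 5′ end of eef-1G. For vap-1 (WBGene00006886, X:17393939-17396556, minus strand), which encodes a venom-allergen-like protein secreted by the sheath glia, the region was 2.88 kb, since F11C7.2 lies 257 bp upstream. For kcc-3 (WBGene00019289, II:7425939-7434282, minus strand), which encodes a potassium-chloride cotransporter placed around the AFD ending, it was 9.32 kb, and the closest pooled summit was 11112 bp outside it.

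The IDR-thresholded summit closest to the body of each gene was 23328 bp away at pros-1, 24013 bp at lin-26 and 38666 bp at mls-2. It was between 44626 and 69626 bp away at kcc-3, fig-1, vab-3 and daf-6. At ver-1, vap-1 and ttx-1, which all lie within 1 Mb of a chromosome end, it was 190970, 212507 and 330640 bp away. The one nearest to mls-2, with signal 94.96, was 178 bp from the 5′ end of mig-13.

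Of the genes that bound the upstream sequence of the 10, 4 had a pooled summit in their own region and 6 had none. This is close to the 43.0% of all genes with one. The neighbours with a pooled summit were lir-1, with a highest signal of 75.6, npr-1 with 36.64, fre-1 with 33.03 and K12H4.7 with 33. None of these neighbours had an IDR-thresholded summit, where 5.04% of all genes had one.

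Lists of genes connected with the same cells gave mixed counts. Beside each list stands the share over all genes, 43.0% with a pooled, 25.4% a matched and 5.04% an IDR-thresholded summit. Of 9 further sheath glia genes 3 had a pooled summit and 1, lit-1, had an IDR-thresholded one. The lit-1 gene encodes a Nemo-like kinase that opposes daf-6 in setting the width of the amphid channel. Its region of 30.59 kb held 18 pooled summits, of which 10 were matched, and the strongest, in an intron at III:13720564, had signal 93.39 and ranked 570 and 536 in replicates 1 and 2. The aff-1 and mom-4 regions had 1 pooled summit each, with signals 30.17 and 29.41 and no match in both replicates, and the clh-1, acd-1, delm-1, delm-2, F16F9.3 and T02B11.3 regions had no pooled summit.

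Of 8 genes of other glia 2 had a pooled summit, 1 a matched one and none an IDR-thresholded one. The matched one was at che-14, with a highest signal of 34.6. The highest signal of the list was 36.82 at lin-48, which had no matched summit. The bHLH genes hlh-17, hlh-31 and hlh-32 had none. Of 8 genes of the AFD neuron, whose ending the sheath glia surround, 6 had a pooled summit, 2 a matched one and none an IDR-thresholded one, with the highest signal, 41.05, at the channel gene tax-4. Of 3 genes of the ver-1 family and its ligand 2 had a pooled summit, and none had a matched or an IDR-thresholded one. The ligand gene pvf-1 had a pooled summit 393 bp upstream of its 5′ end with signal 63.72. That summit ranked 434 in replicate 1 and had no match in replicate 2. The other Otx-type genes, ceh-36 and ceh-37, had highest signals of 30.9 and 29.44 and no matched summit.

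Of 10 genes related in sequence to the sheath glia genes 8 had a pooled summit and 6 a matched one, with lir-1 the highest. Of 10 genes of the amphid dendrites and cilia 5 had a pooled, 4 a matched and 2 an IDR-thresholded summit. The IDR-thresholded ones were at daf-19, the RFX factor gene of ciliated neurons (signal 97.9, 236 bp upstream), and dyf-3 (signal 90.82, 66 bp upstream). Over all genes the shares were 43.0% for a pooled, 25.4% for a matched and 5.04% for an IDR-thresholded summit. The median region was 9.56 kb for the related genes and 7.77 kb for the dendrite genes, against 3.54 kb for all genes. Among all genes with regions of 6 to 12 kb, 63% had a pooled, 38.2% a matched and 7.17% an IDR-thresholded summit. Both lists also hold genes outside that class, such as kcc-2 (40.87 kb), daf-19 (13.75 kb) and dyf-3 (3.09 kb). Over 12 kb the shares among all genes were 86.4%, 61.2% and 10.7%, and from 3 to 6 kb they were 42.2%, 23.2% and 4.53%. No test was made between the lists.

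**Figure D5:**
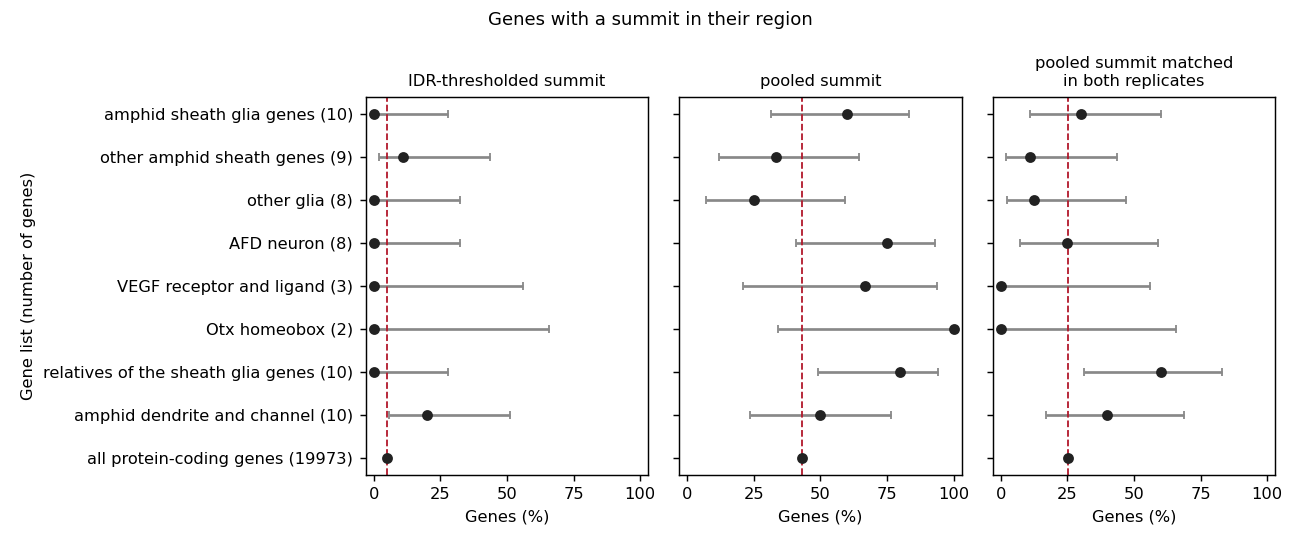
Percent of the genes of each list with an IDR-thresholded, a pooled and a matched pooled summit in their region, with Wilson 95% intervals as bars and the value over all 19973 genes as a dashed line. The sheath glia genes are at 0, 60 and 30%, and all 3 intervals include the value over all genes.

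The Otx-type core TAATCC was found near genes with and without a summit. On either strand it was found in 5 of the 10 promoter windows (250 bases before to 50 after the 5′ end), against 9.37% of all 19973 such windows. They included vab-3, fig-1 and daf-6, with 1 match each, and vap-1, with 2. It was found in 6 of the 14 summit windows (42.9%), against 9.14% of all pooled summit windows and 5.72% of the IDR-thresholded ones. The summit windows with the core were at ttx-1, ver-1 and vab-3 only, and of these only the ver-1 ones were at matched summits. A pair of the ttx-1 windows overlap, so the 14 are not independent. Over all their upstream intergenic sequence the 10 genes held 6.33 matches per 10 kb, against 3.7 per 10 kb over all genes. Over whole regions, gene bodies included, the densities were closer, 4.67 per 10 kb at the 10 genes and 3.66 per 10 kb over all genes. The other sheath glia list held it in 1 of 9 promoter windows.

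The vap-1 window (X:17396507-17396806, minus strand) is shown, with the same capitals, because it holds 2 matches at a gene with no summit in any list.
vap-1 promoter: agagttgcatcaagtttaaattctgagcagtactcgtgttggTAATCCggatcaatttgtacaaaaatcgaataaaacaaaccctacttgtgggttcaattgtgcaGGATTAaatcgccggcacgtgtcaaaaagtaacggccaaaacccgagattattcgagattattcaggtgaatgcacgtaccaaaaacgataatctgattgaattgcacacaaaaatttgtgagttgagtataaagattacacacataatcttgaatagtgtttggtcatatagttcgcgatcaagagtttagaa
GGGAA was found in 4 of the 10 promoter windows against 43.5% of all, and in 10 of the 14 summit windows (71.4%) against 47.8% of all pooled summit windows. AAAAAA, a run of the kind in Drosophila Hunchback sites, was in 4 of 10 promoter windows against 80.1% of all, and in 9 of 14 summit windows (64.3%) against 71.3%. These letter matches describe the sequence and are not evidence of binding by any factor. No test was made of them.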

How the data were processed

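ZTF-16-GFP ChIP-seq of 2 biological replicates of 1 group was available as ce11 peak lists. The lists are narrowPeak files made by the authors against 1 control file, per the file notes deposited with them. The authors' signal value and −log10 q-value of each peak were deposited, and both were used only to rank or describe peaks within a list. The aligner, peak caller and IDR threshold are not stated in the labels or file notes, and the ce10 lists were not used. Nothing says how reads that map to several places were treated, which bears on repeats and tRNA genes.

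Positions are 1-based. Genes came from Ensembl release 115 and sequence from RefSeq, both on WBcel235. A gene's region was its body plus upstream intergenic sequence to the next protein-coding gene, at most 10 kb. A pooled summit was matched where each of the 2 replicates had a summit within 200 bp. No test was made: counts stand beside the same counts over all 19973 genes, with Wilson 95% intervals. Of the comparison genes, F53F4.13 and ver-2 were not matched by name. The named genes were the 10 genes, the gene upstream of each and, of each list, up to 3 genes with the highest IDR-thresholded signal or else 1 with the highest pooled signal. Other genes given in the list paragraphs, and those beside a nearest summit, were chosen after their values were seen. The genes, lists and motifs were chosen with earlier results of these data known. The counting was tested on summits placed at known positions. Python 3.11.15, numpy 2.4.6, pandas 2.3.3, scipy 1.17.1 and matplotlib 3.10.9 were used. A promoter window that was counted is not reported here.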

Additional observations from a re-analysis of the deposited data

How the results depend on the processing

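No gene of the 10 had an IDR-thresholded summit in its region under any of the 8 alternatives run. Most of these could not have changed the 0. A shorter upstream limit, the gene body alone and leaving out peaks near small non-coding genes only narrow the regions or the list. The closest IDR-thresholded summit was 23328 bp from any gene body, out of reach of the overlap rule and a fixed 10 kb upstream. Only the 822 strongest peaks of either replicate alone could have added a gene, and they did not. The number of genes with a pooled summit, 6, ran from 4, against 27.9% of all genes, with only the pooled peaks in the upper 50% by signal, to 8, against 74.1% of all genes, with a fixed 10 kb upstream whatever genes lie there, an alternative added after the data were seen. That fixed stretch brought in lin-26, through lir-1, and vap-1, and it raised the pooled summits to 25 and the matched ones to 8, with 4 genes having a matched summit against 49.2% of all genes. With those upper 50% alone, 4 summits were left, of which 2 were matched. When a replicate was left out, the 14968 strongest peaks of the other stood in for the pooled list. Leaving out replicate 1 gave 5 genes, against 44.3% of all genes, and 8 summits. Leaving out replicate 2 gave 6 genes, against 43.1% of all genes, and 12 summits. Without replicate 1, ttx-1 and pros-1 had no summit and lin-26 had 1. A match in 1 replicate in place of both gave more by construction. With replicate 2 alone it gave 5 genes, against 34% of all genes, and 7 summits. With replicate 1 alone it gave 6 genes, against 35.7% of all genes, and 11 summits. The upstream limit, the overlap rule, the match distance and leaving out peaks near small non-coding genes moved no count by over 1.5 times. No paired analysis was possible because there is 1 group. With no read numbers, how weak a site could have been seen at each gene is unknown.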
